A study of Mus musculus with 6 samples.

Results

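The Hedgehog genes described here are the ligand Shh, the receptor Ptch1, the signal transducer Smo, the co-receptors Boc and Gas1, the transcription factors Gli1, Gli2 and Gli3 and the secreted inhibitor Hhip. They were taken by symbol, and all 9 were present among the 24014 genes of each count table. The data are RNA-seq read counts from epidermal cells of wild type mouse dorsal skin collected on postnatal day 2. In the 3 blister libraries a suction blister, in which negative pressure parts epidermis from dermis, had been raised on the neonatal back and was healing. The 3 control libraries came from skin labelled as control. Neither the time between suction and collection nor the number of animals per library is given in the labels, so p-values speak only of how these libraries vary, and that variation may be technical.

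Hedgehog proteins are secreted ligands that bind Ptch1 and so release Smo, which Ptch1 otherwise holds inactive. Smo then acts at the primary cilium to turn Gli2 into an activator and to limit the repressor form of Gli3. Gli1, Ptch1 and Hhip are transcribed in response, and Ptch1 and Hhip bind ligand and damp the signal. Boc and Gas1 bind the ligand at the cell surface and help Ptch1 receive it, and in the mouse embryo both are known to be repressed by the pathway. In developing mouse skin Shh is made by the epithelial cells at the leading edge of the growing hair follicle, and it acts on the follicle epithelium and on the dermal condensate and papilla beneath it.

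Of the 9 genes 7 fell in blister libraries, 0 rose, and Smo and Gas1 did not pass the test. Gli1, Ptch1 and Hhip, the targets, fell by 2.25, 1.78 and 3.49 on the log2 scale, and Shh by 1.62. Gli2, Gli3 and Boc fell by 1.003, 1.02 and 0.81, while Gas1 stood at a log2 fold change of 0.32 ± 0.15 (SE). The test was edgeR's quasi-likelihood test across all 14028 genes that passed a filter on low counts, which all 9 genes did, with Benjamini-Hochberg adjustment over those genes and a threshold of 0.05. Over all genes tested 21.3% were called, 11.6% lower and 9.74% higher in blister libraries, and 7.58% were called lower by at least 2-fold, as 6 of the 9 were. The median log2 fold change of the 9 was -1.02, beside 0.00 over all genes tested. In 7 of the 9 genes every blister library lay below every control library, which was so for 23.2% of all genes tested.

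Expression levels are given as CPM, read counts brought to a common library size with TMM factors, which correct for differences in composition between libraries. Library totals ran from 7600567 to 15912863 counts. Within each group every library differed from the others by more than counting noise. The first principal component of log2 CPM held 68.3% of the variance and placed blister 3 at -21.1, between blister 1 and 2 at -58.5 and -57.8 and the controls at 37.9 to 59.1. Xist, the RNA of the inactive X chromosome, was abundant in blister 1, blister 2 and control 1, and the Y-linked Ddx3y in the other 3 libraries. Scaled by library size alone, with no TMM factor, 2831 genes were called lower and 544 higher, against 1626 and 1367 with TMM, and the median over all genes moved to -0.25. With upper-quartile scaling the counts were 1886 and 988. Keratinocyte markers were abundant throughout: a list of 9 summed to 102620 to 188040 CPM in blister libraries and 60020 to 84728 CPM in controls, with Krt1 as its most abundant member.

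Promoters are shown for Hhip and Ptch1, targets that fell together, and for Gli2, whose window alone among those of the 6 genes found in the RefSeq promoter table (GRCm38.p6) held a short match to the sequence that Gli proteins bind. Each line gives the 250 bases before the annotated first base of the transcript, that base as a capital letter, and the bases that follow it. In Gli2 the other capitals mark the match. These are RefSeq reference sequences of a build other than the one the counts rest on.
Ptch1 chr13:63565686-63565985, minus strand: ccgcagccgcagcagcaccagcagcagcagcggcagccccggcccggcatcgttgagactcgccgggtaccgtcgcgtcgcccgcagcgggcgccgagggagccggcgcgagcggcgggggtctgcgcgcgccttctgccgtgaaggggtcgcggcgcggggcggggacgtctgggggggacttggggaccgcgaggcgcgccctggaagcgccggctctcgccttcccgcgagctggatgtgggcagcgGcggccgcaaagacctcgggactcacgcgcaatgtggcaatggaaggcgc
Hhip chr8:80057959-80058258, minus strand: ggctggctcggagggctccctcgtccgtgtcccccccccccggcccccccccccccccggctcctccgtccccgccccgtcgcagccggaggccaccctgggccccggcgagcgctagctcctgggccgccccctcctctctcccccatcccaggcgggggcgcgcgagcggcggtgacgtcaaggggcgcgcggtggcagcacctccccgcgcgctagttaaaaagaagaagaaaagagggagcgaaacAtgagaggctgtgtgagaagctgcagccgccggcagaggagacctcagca
Gli2 chr1:119053570-119053869, minus strand: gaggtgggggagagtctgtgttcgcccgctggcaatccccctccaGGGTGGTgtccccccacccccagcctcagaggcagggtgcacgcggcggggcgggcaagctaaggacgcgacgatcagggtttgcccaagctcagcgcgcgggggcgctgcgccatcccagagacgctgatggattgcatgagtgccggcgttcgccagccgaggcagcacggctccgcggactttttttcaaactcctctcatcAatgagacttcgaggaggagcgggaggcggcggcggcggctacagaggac

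The 9-letter Gli binding motif GACCACCCA was searched on both strands. It occurred in 0.253% of the 32851 promoters of this length in the table and in 0 of the 6 windows. Its inner part ACCACCC, which every match of the longer motif also contains, occurred in 4.61% of all windows and in 1 of the 6, that of Gli2, on the reverse strand and starting at position -205 from the first base of the transcript. A match is a description of letters and not of binding, and its absence from these 300 bases says nothing of sites elsewhere. The windows of Ptch1, Hhip and Gli2 had a GC content of 76.3%, 73.7% and 67.3%, beside a median of 52.7% over all promoters.

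Shh, the ligand, had 13.8, 11.7 and 12.8 CPM in blister 1, 2 and 3, against 44.3, 29.5 and 44.5 CPM in control 1, 2 and 3. The 3 blister libraries were close to each other, and each lay below the lowest control. The mean was 12.8 ± 1.03 CPM for blister libraries against 39.5 ± 8.58 CPM for controls (SD, n = 3 each), and the log2 fold change, -1.62 ± 0.19 (SE), had an edgeR adjusted p of 0.00658. Shh was called in all 18 alternative fits, among them the 6 that each omitted a library. Its exons overlap those of the antisense gene 9530036O11Rik over 15.7% of their bases. That gene had 17 counts in all libraries together, and whether the counting used strand is not stated in the labels.

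Gli1, a transcription factor whose transcription is itself a readout of the pathway, had 59.1, 47.9 and 88.6 CPM in the blister libraries, against 300.7, 264 and 367 CPM in the controls. The groups were far apart, with the highest blister library below the lowest control by more than the range of either group. The means were 65.2 ± 21.0 and 311 ± 52.4 CPM, a 4.75-fold lower level in blister libraries (log2 fold change -2.25 ± 0.25 (SE), edgeR adjusted p = 0.00522). Like Shh, Gli1 was called in all 18 alternatives.

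Ptch1, the receptor that is also a target, had 51.2, 26.4 and 96.0 CPM in the blister libraries, against 173, 157 and 269 CPM in the controls. Its blister libraries differed among themselves more than those of Shh did, with blister 2 lowest and blister 3 highest. The log2 fold change was -1.78 ± 0.44 (SE), with an edgeR adjusted p of 0.0297. The adjusted p became 0.103 without blister 1 and 0.0690, 0.0580 and 0.0780 without control 1, 2 and 3, while the log2 fold change lay between -2.34 and -1.42 in the 6 leave-one-out fits.

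Hhip, a secreted and membrane-bound protein that binds ligand and damps the signal, was the scarcest of the 9. It had 4, 1 and 25 counts in blister 1, 2 and 3, or 0.367, 0.138 and 2.12 CPM, against 146, 82 and 266 counts, or 11.2, 5.74 and 15.1 CPM, in the controls. Blister 3 held most of the blister reads, and still lay below each control. The log2 fold change was -3.49 ± 0.75 (SE), an 11.2-fold lower level (edgeR adjusted p = 0.0204), and it was -5.24 without blister 3. The call was lost without blister 1 (adjusted p = 0.0714) and without control 1 (0.0610). With so few blister reads the size of the fold is loosely fixed, and limma-voom, which weights low counts differently, gave -4.02.

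**Figure D1:**
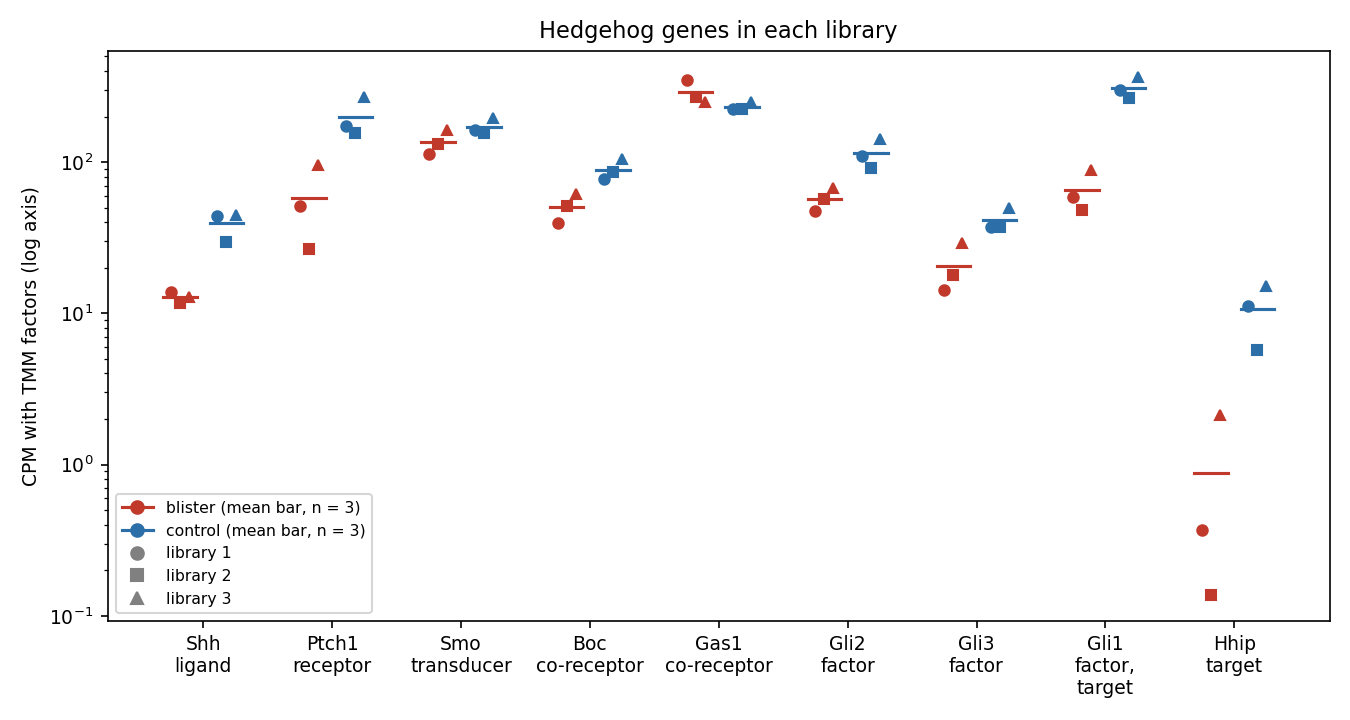
CPM (counts scaled with TMM factors, log axis) of the 9 Hedgehog genes in each of 3 blister (red, left) and 3 control (blue, right) libraries, with bars at the group means and marker shapes for the library number. Blister points lie below all control points for Shh, Ptch1, Boc, Gli2, Gli3, Gli1 and Hhip, overlap them for Smo and lie narrowly above them for Gas1.

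Smo, the membrane protein that carries the signal inward, had 113, 132 and 163 CPM in the blister libraries, against 163, 155 and 194 CPM in the controls. Blister 3 lay between control 2 and control 1, so the groups overlapped. Its log2 fold change of -0.33 ± 0.16 (SE) did not pass (edgeR adjusted p = 0.172), and it passed in 1 of 18 alternatives, the fit without blister 3 (-0.48, adjusted p = 0.0485, range over the alternatives 0.0485 to 0.434).

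Of the co-receptors Boc fell and Gas1 did not pass the test. Boc, an immunoglobulin-domain protein that binds ligand, had 39.4, 51.2 and 61.4 CPM in the blister libraries, against 77.1, 85.6 and 104 CPM in the controls, without overlap. It fell by 0.81 ± 0.19 (SE) on the log2 scale (edgeR adjusted p = 0.0250). That call was kept in 1 of the 6 leave-one-out fits, the fit without blister 3, and the adjusted p was 0.0683 and 0.0586 without blister 1 and 2 and 0.0565, 0.0638 and 0.0723 without control 1, 2 and 3. Gas1, a lipid-anchored ligand-binding protein, had 350.0, 271 and 250.7 CPM in the blister libraries, against 223, 225 and 250.2 CPM in the controls. Every blister library lay above every control, as in 21.4% of all genes tested, but blister 3 and control 3 were almost the same. The edgeR adjusted p of Gas1 was 0.165, and between 0.0736 and 0.783 over the 18 alternatives, none of which called it. Scaled by library size alone its log2 fold change was 0.05, which is 0.31 above the median of all genes under that scaling. The antisense gene Gm48488, which is not in the tables, overlaps 19.9% of the exon bases of Gas1.

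Gli2, in mice the main activator of the pathway, had 47.2, 57.3 and 67.2 CPM in the blister libraries, against 110.2, 91.6 and 142 CPM in the controls. It fell by 1.003 ± 0.20 (SE) on the log2 scale (edgeR adjusted p = 0.0165), and the call was lost without blister 1 (0.0555) and without control 1 (0.0534). Gli3, the main repressor, had 14.2, 18 and 29.0 CPM in the blister libraries, against 37.4, 37.4 and 49.9 CPM in the controls, and fell by 1.02 ± 0.27 (SE) with an adjusted p of 0.0348. Both factors were below the controls in every blister library and by a similar factor, 2.0 for Gli2 and 2.03 for Gli3. The Gli3 call was lost in 5 of the 6 leave-one-out fits, with adjusted p of 0.0925 and 0.0898 without blister 1 and 2 and of 0.0805, 0.0712 and 0.0998 without control 1, 2 and 3. No stretch of 50 bases was shared between transcripts of Gli1, Gli2 and Gli3, nor between those of Boc and its relative Cdon.

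Relative to the co-receptors, each target was lower in every blister library than in any control. The measure was the log2 ratio of the counts of 2 genes within a library, with a pseudocount of 1 and no library scaling. At low counts, as for Hhip, the pseudocount makes the ratio depend in part on library depth. It was computed for Ptch1, Gli1 and Hhip over Boc and over Gas1. Gli1 over Gas1 was -2.56, -2.50 and -1.50 in the blister libraries and 0.43, 0.23 and 0.55 in the controls. Gli1 over Boc was 0.58, -0.10 and 0.53 in the blister libraries and 1.96, 1.62 and 1.82 in the controls. The difference between the group means was -2.59 for Gli1 over Gas1, -2.24 for Ptch1 over Gas1 and -4.24 for Hhip over Gas1. Over Boc the differences were -1.46 for Gli1, -1.11 for Ptch1 and -3.11 for Hhip. For each of the 6 pairs the exact two-sided permutation p was 0.1, also after Benjamini-Hochberg adjustment over the 6, which is the smallest value that 3 against 3 libraries can give. How many of all genes would separate in the same way over these co-receptors was not computed. By CPM alone, 23.2% of all genes tested had every blister library below every control, and Gas1 had every blister library above. As the values show, the size of the difference depended on the co-receptor chosen, since Gas1 over Boc, a pair chosen after its values were seen, itself was 3.15, 2.4 and 2.03 in the blister libraries and 1.53, 1.39 and 1.26 in the controls.

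**Figure D2:**
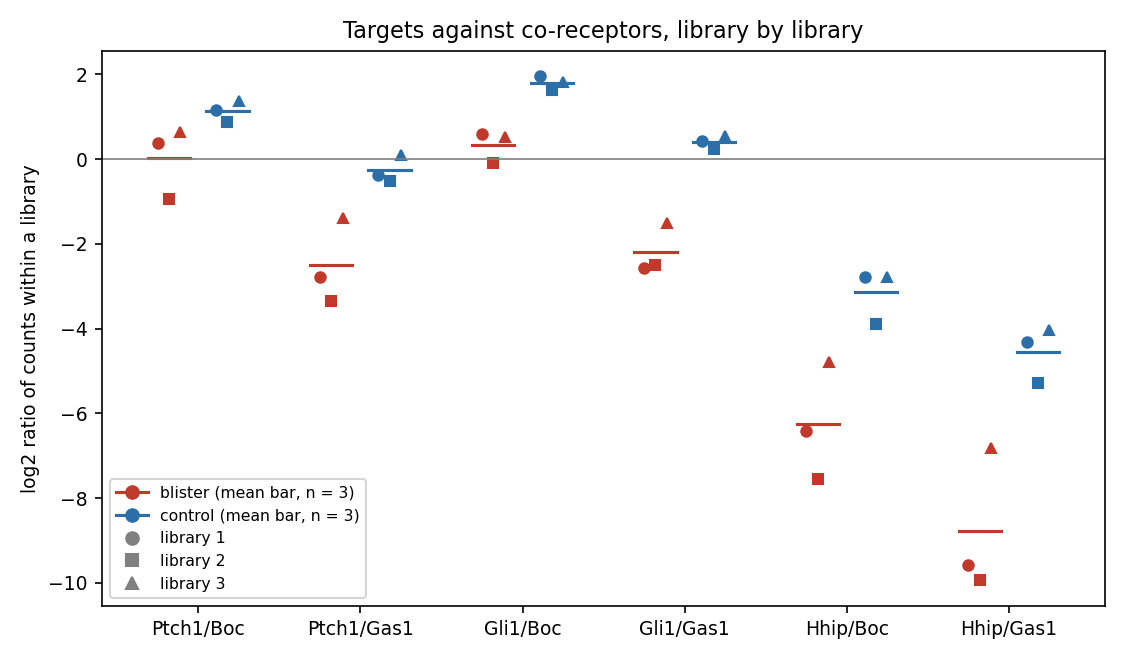
Log2 ratio of the counts of each target to each co-receptor within a library, for 3 blister (red, left) and 3 control (blue, right) libraries, with bars at the group means. In all 6 pairs every blister point lies below every control point, and the distance is larger over Gas1 than over Boc.

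Ligand and targets did not move in proportion in every library. Gli1 over Shh averaged a log2 ratio of 2.30 ± 0.42 in blister libraries and 2.99 ± 0.20 in controls (SD, n = 3 each), and Ptch1 over Shh 1.98 ± 0.87 and 2.32 ± 0.32. For both the groups overlapped, and these pairs too were chosen after their values were seen. Hhip over Shh averaged -4.30 ± 1.54 in blister libraries and -1.96 ± 0.40 in controls, without overlap.

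Compared per kilobase of exon, the order of the 9 genes differed between the groups in the place of Gli1 and in that of Shh and Ptch1, whose ranges overlapped in both groups. In blister libraries Gas1 was highest at 98.1 ± 17.7 CPM per kb, then Smo at 24.1 ± 4.46, Gli1 at 13.1 ± 4.20, Boc at 11.4 ± 2.48 and Gli2 at 8.33 ± 1.46 CPM per kb (SD, n = 3). In controls Gas1 was at 78.6 ± 5.12, Gli1 followed at 62.2 ± 10.49 and Smo came next at 30.4 ± 3.69 CPM per kb. The ranges of Gli1, Boc and Gli2 overlapped from neighbour to neighbour in blister libraries, as did those of Shh, Ptch1 and Gli3 there and of Boc, Gli2, Ptch1 and Shh in controls, so their order within these runs is not beyond the spread. Shh stood at 4.48 ± 0.363 CPM per kb in blister libraries and 13.9 ± 3.01 in controls. Ptch1 stood at 4.08 ± 2.49 CPM per kb in blister libraries and 14.1 ± 4.28 in controls, and Gli3 at 2.13 ± 0.797 and 4.34 ± 0.751. Hhip, at 0.0965 ± 0.120 and 1.18 ± 0.520 CPM per kb, was the lowest in both without overlap. With the longest transcript as the length, the ranges of Gas1 and Gli1 overlapped in controls.

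Around the 9 genes, 39 of 42 other pathway genes could be tested, and 15 fell and 1 rose in blister libraries. For this list and its parts, the share to set beside these counts was 11.6% lower and 9.74% higher over all genes tested. The median log2 fold change of this list was -0.54. Calls were most frequent among other described targets, where 6 of 7 fell and 0 rose. Mycn, a growth-promoting transcription factor, fell by 1.83 ± 0.29 (SE; edgeR adjusted p = 0.00963) and the D-type cyclin genes Ccnd1 and Ccnd2 by 0.86 ± 0.19 and 0.95 ± 0.24. Bcl2, an inhibitor of cell death, fell by 1.27 ± 0.26, and the forkhead gene Foxe1 had a log2 fold change of -2.96 ± 0.71 (SE), also past the threshold in edgeR (adjusted p = 0.0275), with 0.275, 0.551 and 3.31 CPM in the blister libraries and 11.8, 8.96 and 13.1 CPM in the controls. These genes also answer to other signals. Foxf1, a target known from mesenchyme, was low in all libraries and did not pass (1.63 ± 0.261 and 0.966 ± 0.173 CPM in blister and control libraries, edgeR adjusted p = 0.128).

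Among genes for other ligands and for ligand release 2 of 5 tested fell and 0 rose. Scube3, a secreted protein of the family that helps release ligand, fell by 2.71 ± 0.65 (SE) on the log2 scale. Its log2 fold change was -3.78 without blister 3 and -2.26 without blister 2, and the call was lost without blister 1 and without each control. Disp1, the transporter that exports ligand, fell by 0.62 ± 0.18 (edgeR adjusted p = 0.0468), a call kept in 8 of 18 alternatives and in 0 of the 6 leave-one-out fits, where the adjusted p reached 0.140. The other ligands were near the floor of detection, with Ihh at 5 to 12 counts in blister libraries and 7 to 13 in controls and Dhh at 2 counts in each blister library and 1 to 11 in controls. Cdon, the third co-receptor, averaged 42.6 ± 9.97 CPM across blister libraries and 67.5 ± 17.4 CPM across controls, and its log2 fold change of -0.66 ± 0.23 (SE) did not pass (edgeR adjusted p = 0.0775).

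Of 16 tested genes that carry the signal to the Gli proteins 4 fell and 1 rose. Kif7, the kinesin that organises Gli proteins at the tip of the cilium, fell by 1.19 ± 0.17 (SE), with 14.4, 13.8 and 20.3 CPM in the blister libraries and 36.7, 37.3 and 36.7 CPM in the controls. Evc and Evc2, partners of Smo at the base of the cilium, fell by 0.83 ± 0.17 and 0.54 ± 0.12, and Mgrn1, a ubiquitin ligase that limits Smo at the surface, by 0.55 ± 0.15. Csnk1a1, a kinase with roles in the Hedgehog and Wnt pathways, rose by 0.64 ± 0.17 (SE). Sufu, which holds Gli proteins back, had 45.4 ± 2.62 CPM in blister libraries and 52.7 ± 3.15 CPM in controls (edgeR adjusted p = 0.183). In the cilium list 3 of 10 fell and 0 rose. Tulp3, which brings receptors into the cilium, fell by 0.95 ± 0.14, and the transport genes Ift80 and Ift172 by 0.93 ± 0.25 and 0.59 ± 0.13. Mycn, Kif7 and Tulp3 were called in all 18 alternatives, whereas 12 of the 16 calls in the list were each lost in 2 to 6 of the 6 leave-one-out fits, with an adjusted p of up to 0.140. Of the list 5 genes were called lower without blister 1, 9 without blister 2, 20 without blister 3 and 4, 6 and 5 without control 1, 2 and 3. Over all genes the same fits called 494, 1041, 2063, 479, 823 and 774 lower, against 1626 with all libraries.

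**Figure D3:**
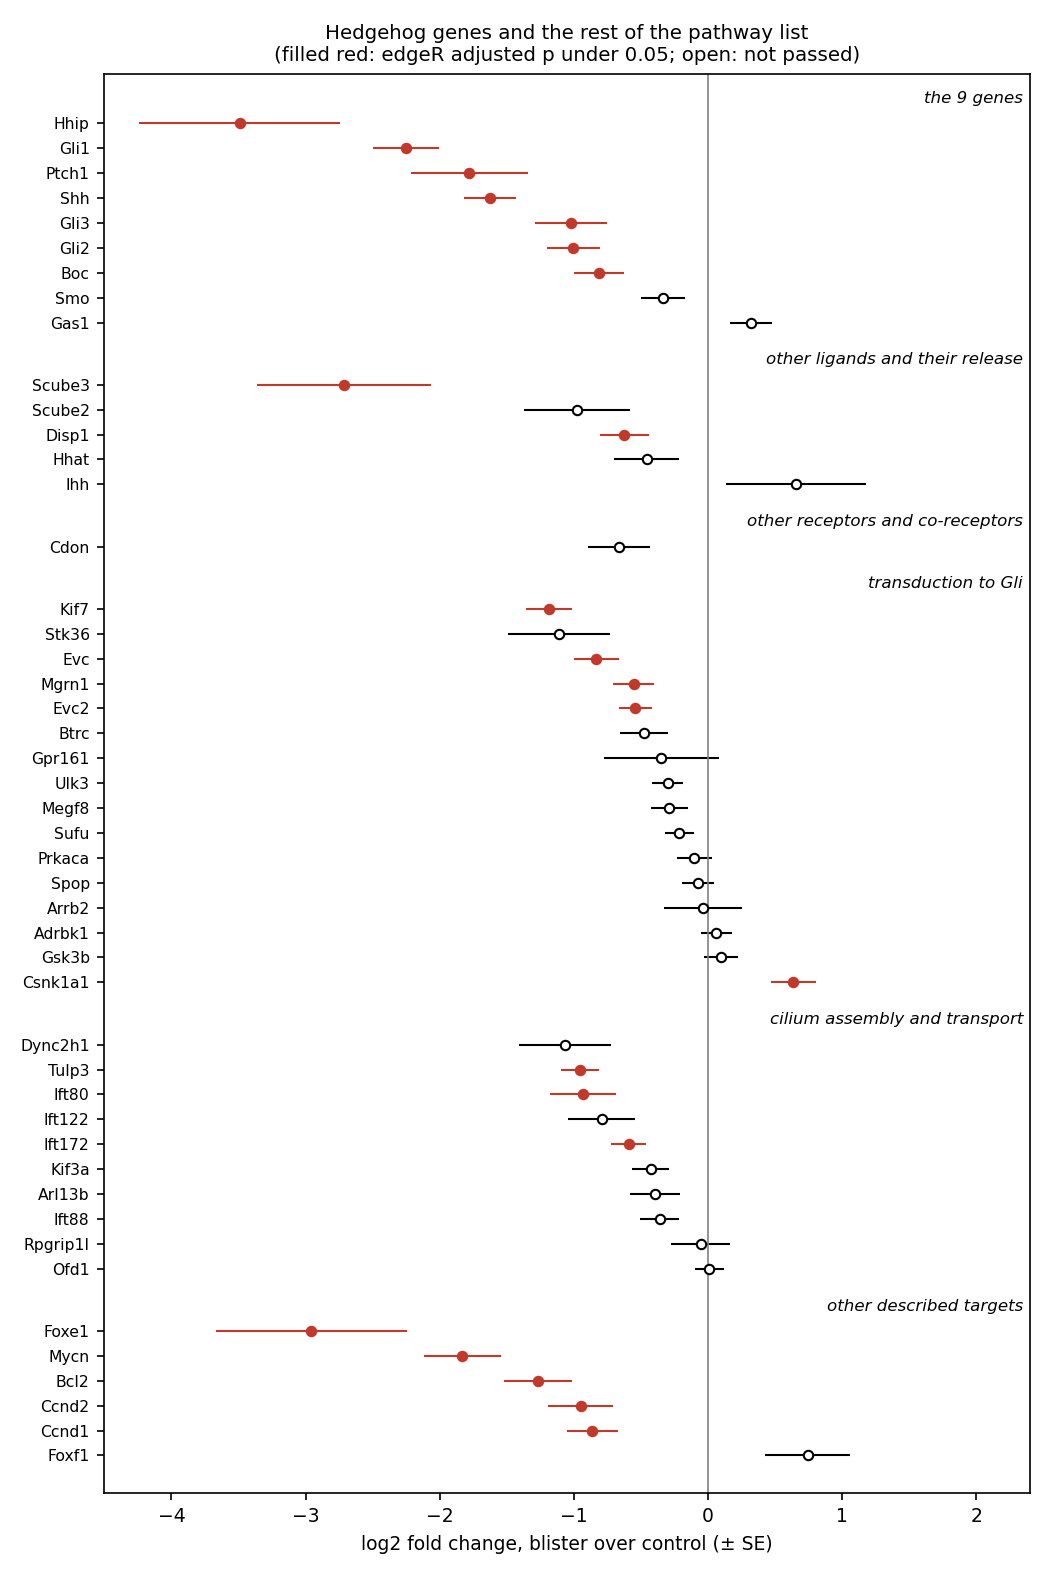
Log2 fold change, blister over control, with its SE, for the 9 Hedgehog genes and other tested pathway genes by role; filled red points had an edgeR adjusted p under 0.05 and open points did not. Hhip lies farthest to the left, and Csnk1a1 is the filled point to the right of 0.

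Genes whose profile over the 6 libraries was most like that of Shh, Gli1 or Gas1 were found by the root mean square difference of log2 CPM, each gene centred on its own mean, among 11237 other genes averaging 5 CPM or more. Nearest to Shh was Lef1, a transcription factor of the Wnt pathway in hair follicles, with a difference of 0.117, then Scube1 at 0.134, Ptpru at 0.140 and Golga7b at 0.147. Lef1 had 18.02 ± 2.61 CPM in blister libraries and 48.5 ± 8.08 CPM in controls. Nearest to Gli1 were Col27a1 at 0.0974, Tspan18 at 0.135, Smim1 at 0.143 and Lrrn1 at 0.167. Ptch1 ranked 95th in likeness to Gli1 and Shh 168th. Nearest to Gas1 were Gpc1 at 0.0403, 9130023H24Rik at 0.0468, Cox10 at 0.0514 and Pigs at 0.0578, none of which passed the test (edgeR adjusted p from 0.117 to 0.220). Ranks of likeness rest on 6 libraries that share their groups, and are a description.

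Markers of the cells that make or receive the ligand moved with these genes, and their part in the result was not tested. In bulk RNA, fewer cells of a type and less RNA per cell cannot be told apart. The share to set beside the marker counts was 11.6% called lower and 9.74% higher over all genes tested. Of 8 tested markers of follicle placode and matrix epithelium 7 fell, and the list summed to 174 to 270.0 CPM in blister libraries and 534 to 610.2 CPM in controls. Lhx2, its most abundant member, fell by 2.11 on the log2 scale. Of 9 tested markers of the dermal papilla and condensate 7 fell, and the list summed to 11.4, 19.7 and 48.1 CPM in blister 1, 2 and 3, against 260, 173 and 313 CPM in the controls. Its most abundant member, Sox18, which endothelial cells also express, had 0.275, 0 and 6.03 CPM in the blister libraries, where a count of 0 in blister 2 allows up to 0.413 CPM by counting error alone, and 69.0, 56.2 and 74.2 CPM in the controls.

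Dermal fibroblast markers differed among themselves in how they followed the targets. The list of 9, of which 4 fell, summed to 114, 853 and 158 CPM in blister 1, 2 and 3, against 688, 924 and 6363 CPM in control 1, 2 and 3. Col1a1, Col1a2 and Col3a1 made up 75.7% to 90.6% of that sum in each library. The sum of blister 2 lay above that of control 1, but 5 of the 9 markers were lower in blister 2 than in control 1 and 4 were higher. In 5 of the 9 every blister library lay below every control, which was so for 23.2% of all genes tested. Pdgfra, a receptor of dermal fibroblasts chosen here after its values were seen, had 1.01, 6.06 and 4.42 CPM in the blister libraries, against 27.3, 19.3 and 69.2 CPM in the controls. Twist2, a dermal transcription factor chosen in the same way, had 0.275, 1.51 and 1.10 CPM in the blister libraries, against 6.83, 8.75 and 16.5 CPM in the controls. Pdgfra and Twist2 were called lower in all 18 alternatives. The rest of the list was less steady, with Lum called in 12 of 17 alternatives, Dcn in 8 of 18 and Col3a1 in 2 of 18. Col1a1, Col1a2, Dpt and Fbn1 overlapped between the groups and were called in 0 of 18. Control 3 held 6.88 times the fibroblast sum of control 2, with 1.39 times its Gli1 level and 1.71 times its Ptch1 level. Of the other lists, 3 of 5 melanocyte markers, 2 of 3 tested Schwann cell markers and 2 of 5 tested endothelial markers fell. All 6 neutrophil markers and 4 of 9 basal and suprabasal keratinocyte markers rose. Some of these counts changed when 1 library was left out, and calls over all genes changed too. Over all genes 1626 were called lower in the full set. That number was 494, 1041 and 2063 without blister 1, 2 and 3 and 479, 823 and 774 without control 1, 2 and 3. Those called lower among endothelial markers were 0 without blister 1, blister 2 or control 3 and 1 without blister 3 or control 1. Among fibroblast markers 2 were called lower without blister 1 or blister 3, among follicle epithelial markers 4 without blister 1 or control 1, and among Schwann cell markers 1 without control 1. Among keratinocyte markers 1 was called higher without control 1 or control 2.

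The melanocyte list summed to 306 to 496 CPM in blister libraries and 782 to 922 CPM in controls, the Schwann cell list to 21.8 to 32.9 and 61.7 to 70.7 CPM, and the endothelial list to 3.30 to 7.85 and 9.74 to 71.2 CPM. The neutrophil list summed to 289 to 902 CPM in blister libraries and 29.3 to 36.9 CPM in controls, and S100a9, its most abundant member, rose by 6.35 ± 0.59 (SE) on the log2 scale (edgeR adjusted p = 0.00410). The most abundant melanocyte and Schwann cell markers, Dct and Sox10, had log2 fold changes of -1.10 and -1.16, and Col3a1, that of the fibroblast list, did not pass (edgeR adjusted p = 0.0726). Emcn and Cldn5 among endothelial markers and Alx4 and Sox18 among dermal papilla markers were at 0 in at least 1 library. Of 3 Merkel cell and 5 macrophage and Langerhans cell markers 0 passed, which at an unadjusted p under 0.05 held for 0 and 1 of them.

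Blister 3 was the highest blister library in the targets and also in Smo, Boc, Gli2 and Gli3, but not in Shh or Gas1. Its level over the mean of blister 1 and 2 was 8.41 for Hhip, 2.47 for Ptch1, 1.80 for Gli3 and 1.66 for Gli1, beside 1.01 for Shh. In Smo, Boc and Gli2 it was 1.33, 1.36 and 1.29, and in Gas1 0.808. For Ptch1 blister 1 and 2 also differed from each other, at 51.2 and 26.4 CPM, beside 96.0 CPM in blister 3. The summed dermal papilla markers stood at 3.09 on the same scale, follicle epithelial markers at 1.45, fibroblast markers at 0.327 and neutrophil markers at 0.401. The fibroblast sum, mostly collagens, was 114, 853 and 158 CPM in blister 1, 2 and 3. Its low value in blister 3 thus rests on the high sum of blister 2, and blister 3 lay above blister 1. Without blister 3, 8 of the 9 genes were called lower, Smo being the added gene, and without blister 3 and control 3 together 7 were. Over all genes these fits called 2063 and 1592 lower, against 1626 with all libraries.

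The direction of each of the 9 genes was the same among libraries alike in sex-linked RNA. In the libraries high in Xist, blister 1 and 2 and control 1, the log2 ratio of mean CPM was -2.49 for Gli1, -2.16 for Ptch1, -5.47 for Hhip and -1.80 for Shh. In those low in Xist, blister 3 and control 2 and 3, it was -1.83, -1.15, -2.30 and -1.53 for the same genes. Gas1 was at 0.48 and 0.08 and Smo at -0.42 and -0.10. With 1 library on a side these are values with no test. With the level of Xist added as a covariate, edgeR called 7 of the 9 genes lower. Over all genes it then called 1016 lower, against 1626 without the covariate.

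**Figure D4:**
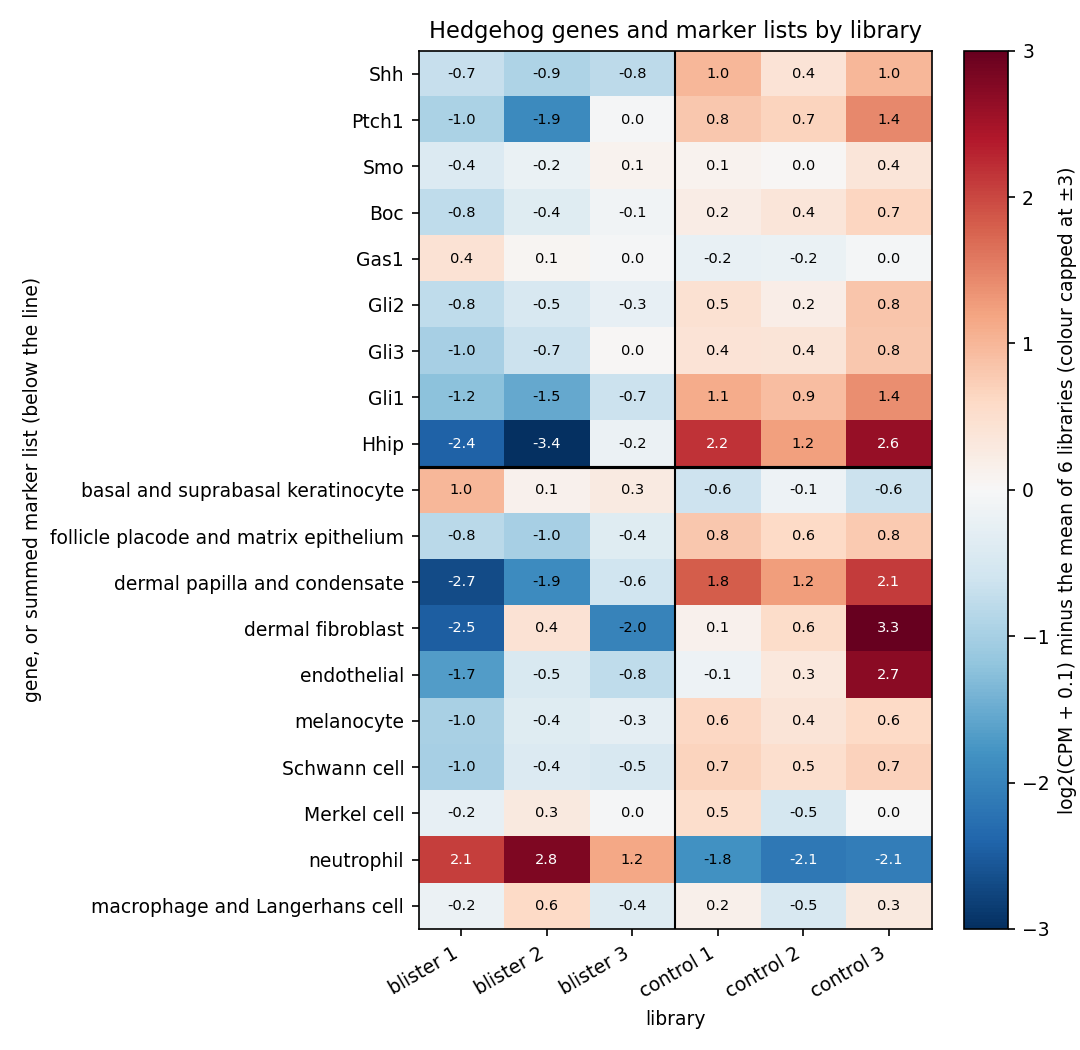
Log2(CPM + 0.1) of each Hedgehog gene, and of the summed CPM of each marker list below the line, minus its mean over the 6 libraries, for blister 1 to 3 (left) and control 1 to 3 (right). Targets and dermal papilla markers are lowest in blister 1 and 2 and intermediate in blister 3, Shh is about equal in the 3 blister libraries, and the summed fibroblast markers, mostly collagens, are highest in control 3.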

How the data were processed

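The authors deposited 1 table of unscaled read counts for each library. HISAT2 2.0.0 did the alignment and featureCounts the counting, on builds named NCBIM37 and mm9, per the submitters' processing notes. The featureCounts version and strand setting are not given in the labels. Per the labels' protocols, epidermis was freed with 0.25% trypsin, passed through a 70 µm filter, and messenger RNA was taken with oligo-dT beads.

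Counts were tested with edgeR 4.0.16 (R 4.3.3; quasi-likelihood, TMM, filterByExpr with a minimum count of 10, two-sided, group as the single term). DESeq2 1.42.0, limma 3.58.1 (voom) and 16 other settings were alternatives. The procedure was tested on simulated data. Ratios used a pseudocount of 1. Log2 CPM for likeness and the principal component used 0.5. Exon lengths come from GENCODE M21, on another build, which all 9 symbols matched. Same-numbered libraries were not treated as pairs. Their deviations from the group means correlated at 0.211, -0.259 and 0.039, which with 3 libraries per group cannot settle whether they pair. Genes were named by rule: the 9 genes, pathway genes called and 5 others, the 4 most like Shh, Gli1 and Gas1, and the most abundant marker per list. The members, lists and tests were chosen with earlier results of these data known. Some genes of these lists enter the counts but are not reported here.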

Additional observations from a re-analysis of the deposited data

How the results depend on the processing

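The call of 7 genes lower and 0 higher among the 9 held under 12 of the 18 alternatives, with 2 to 8 lower when 1 library was left out. At an unadjusted p under 0.05, edgeR also gave 0 higher. Over all genes, leaving out 1 library gave 479 to 2063 lower and 306 to 1998 higher, and in the other pathway genes 4 to 20 lower and 0 to 1 higher. Library size alone gave 2831 lower and 544 higher over all genes and 25 lower and 0 higher in the pathway list. The Xist covariate gave 1016 lower and 680 higher over all genes and 0 higher in the pathway list, as did leaving out blister 3 and control 3 together. The causes were not tested. With the replicate block 1511 genes were called lower and 1365 higher, 7 of the 9 lower, and 18 pathway genes lower. Whether the replicate numbers pair the libraries is not settled. With the longest transcript as the length, Shh and Ptch1 ranked 7 and 6 in blister libraries, and Ptch1 and Gli2 ranked 5 and 6 in controls. The log2 fold change of the endothelial marker Pecam1, -1.16 in the full set, turned to 0.66 with the Xist covariate, 0.94 without control 3 and 0.92 without blister 3 and control 3, and ran from -1.67 to 0.94 when 1 library was left out. That of the Merkel cell marker Krt20, 0.17, turned to -0.090 with library size alone, was just below 0 without blister 2 and -0.074 without control 2, in a leave-one-out range of -0.074 to 0.41, and neither gene was called. All 6 ratios of targets to co-receptors kept their direction under pseudocounts of 0.5 and 2 and in every subset of libraries run. With these pseudocounts the group difference of Hhip over Boc was -3.30 and -2.82. That of Hhip over Gas1 was -4.43 and -3.95. Low counts limit Hhip most, with 1 to 25 counts per blister library.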

Other observations

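Ratios between members differed in how steady they were over the 6 libraries. These pairs were chosen after their values were seen, and the values are a description. Boc over Gli2, 2 genes that both fell, had a log2 ratio of -0.26, -0.16 and -0.13 in blister 1, 2 and 3 and of -0.52, -0.10 and -0.45 in control 1, 2 and 3, an SD of 0.17 over all libraries. Gli2 over Gli3 had an SD of 0.20 over the same libraries, with 1.53 ± 0.28 in blister libraries and 1.45 ± 0.14 in controls (SD, n = 3 each). Gli1 over Gli2 was far less steady between groups, at 0.16 ± 0.36 in blister libraries and 1.45 ± 0.08 in controls, without overlap. Smo over Shh moved the other way, at 3.39 ± 0.32 in blister libraries and 2.13 ± 0.25 in controls, also without overlap.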
